A study of Rattus norvegicus with 6 samples.

Results

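The genes of mitochondrial oxidative phosphorylation were examined in fetal rat lung type II epithelial cells held under mechanical strain or left unstrained. The set was taken by gene symbol: every gene whose probe set carried a single symbol starting with Nduf, Uqcr, Cox4 to Cox8 or Atp5, together with Sdha to Sdhd, Cyc1 and Cycs. It held 85 of the 10411 genes that the array measured with such probe sets, and each gene was represented by its brightest probe set. Of these, 34 were assigned to complex I, 4 to complex II, 8 to complex III, 18 to complex IV and 16 to complex V. Cox6c-ps1, counted with complex IV, carries a pseudogene symbol, and Atp5if1, counted with complex V, encodes an inhibitor of the enzyme rather than a subunit. The remaining 5 (Ndufaf genes) encode complex I assembly factors. No probe set with 1 symbol was present for Cycs, Uqcrb, Ndufs5, Ndufa10, Cox7a2, Atp5mc1 or Atp5mc2, since theirs also list a pseudogene or a second gene. The signal filter, set over all probe sets at a mean of 116 signal units, was passed by 80 of the 85 genes. The 5 that did not pass were Cox6a2, Cox6b2, Cox8b, Ndufa4l2 and Ndufaf4.

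Cells came from fetal lungs at embryonic day 19 and were plated in serum-free medium on silastic membranes with a collagen 1 coat. Over 16 h, membranes of the strain group were stretched cyclically by 5% (60 cycles per min) during 15 min of every hour and held at a steady 2.5% stretch during the remaining 45 min, to imitate the forces acting on the lung in the uterus. Control cultures spent the same 16 h unstretched. Each group had 3 cultures. The series text gives control and strain pairs from different litters. Cultures with the same number were taken as a pair of 1 litter, which gives 3 litter pairs and 6 arrays. The labels give CD rats and fetuses of both sexes for all cultures but the first control, for which they name neither. The labels speak of litters, not of single fetuses, so a culture may hold cells of several fetuses. Several genes typical of this epithelium were bright on all 6 arrays: Epcam, an epithelial adhesion molecule, read 12501, 11145 and 11254 signal units in controls and 13084, 11367 and 11775 under strain, and Sftpc, the surfactant protein made by type II cells, read 1111, 1358 and 1228 in controls and 1632, 2418 and 1563 under strain. Sftpa1, another surfactant protein gene, lay between 61.1 and 175 and did not pass the filter.

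Oxidative phosphorylation couples the oxidation of NADH and succinate to the making of ATP in the inner mitochondrial membrane. Complex I (NADH dehydrogenase) and complex II (succinate dehydrogenase, also an enzyme of the tricarboxylic acid cycle) pass electrons to ubiquinone, complex III passes them to cytochrome c, and complex IV (cytochrome c oxidase) to oxygen; complexes I, III and IV pump protons, whose return through complex V (ATP synthase) drives ATP synthesis. Type II cells make and secrete surfactant, a costly task, and are known for abundant mitochondria. Every subunit encoded by the measured genes is a nuclear product that is imported into the organelle; the subunits encoded by mitochondrial DNA are outside the set.

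Many nuclear genes of this system are known targets of the factors NRF1, the ETS family member GABP (also called NRF-2) and YY1. The promoter windows of RefSeq (build GRCr8, 250 bases before to 50 bases after each gene's start, 300 bases in all) were searched on both strands for GCGCATG (an NRF1 site of 7 bases), the same letters followed by CGC (the full NRF1 palindrome of 10 bases, so that each palindrome also counts as the shorter site), CCGGAAG (an ETS core) and AAGATGGCG (a YY1 site). An entry was found for 76 of the 85 genes. The NRF1 palindrome was present in 5 of the 76 windows (6.58%), against 0.932% of 27457 genes' windows and 1.72% of the 8611 windows of genes on the array. The shorter NRF1 site was in 12 (15.8%, against 3.94% and 6.06%), the ETS core in 21 (27.6%, against 9.22% and 15.5%) and the YY1 site in 11 (14.5%, against 1.93% and 3.43%). At least 1 of the 4 was in 33 windows (43.4%, against 13.8% and 22.7%). By complex, 14 of 32 complex I windows, 2 of 4 of complex II, 4 of 6 of complex III, 3 of 14 of complex IV, 7 of 15 of complex V and 3 of 5 of the assembly factors held one. A match is a run of letters, not a measured site. Shown here are the 130 bases before the start of 6 members that hold such a match, written 5′ to 3′ on the gene's strand, with NRF1 and ETS matches in capitals. Their positions in GRCr8 are Ndufa11 chr9:1637484-1637613 on the plus strand, Ndufa6 chr7:115750318-115750447 on the minus strand, Ndufb6 chr5:60206153-60206282 on the minus strand, Sdhb chr5:158547804-158547933 on the plus strand, Cox8a chr1:213833624-213833753 on the minus strand, Atp5po chr11:44657484-44657613 on the minus strand.
Ndufa11: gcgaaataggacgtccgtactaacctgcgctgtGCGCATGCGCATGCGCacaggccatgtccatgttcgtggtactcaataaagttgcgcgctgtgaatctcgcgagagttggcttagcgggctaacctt
Ndufa6: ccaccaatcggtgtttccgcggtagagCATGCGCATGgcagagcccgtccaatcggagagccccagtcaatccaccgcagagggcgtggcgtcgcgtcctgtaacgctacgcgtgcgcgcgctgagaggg
Ndufb6: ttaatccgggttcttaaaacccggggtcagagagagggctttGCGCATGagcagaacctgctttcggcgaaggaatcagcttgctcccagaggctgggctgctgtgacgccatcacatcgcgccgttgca
Sdhb: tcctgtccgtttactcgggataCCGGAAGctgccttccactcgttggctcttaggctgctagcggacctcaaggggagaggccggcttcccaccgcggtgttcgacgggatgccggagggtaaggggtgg
Cox8a: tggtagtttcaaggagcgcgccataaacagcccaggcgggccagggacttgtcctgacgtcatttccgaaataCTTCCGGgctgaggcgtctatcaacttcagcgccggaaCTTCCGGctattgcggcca
Atp5po: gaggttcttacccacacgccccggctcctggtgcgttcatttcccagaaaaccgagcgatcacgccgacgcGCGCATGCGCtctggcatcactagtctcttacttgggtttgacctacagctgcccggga
In the Ndufa6 window the capitals are the 7-base NRF1 site on each strand, overlapping; in Ndufa11 the palindrome occurs at 2 overlapping places; in Cox8a both ETS matches lie on the opposite strand. Ndufa6 and Ndufb6 were among the lowest members under strain, and Cox8a and Sdhb differed between litters in opposite directions, as described with the values. Of the members with the palindrome, Ndufa11 stood at -0.01, Atp5po at -0.14, Atp5me at 0.09 and Ndufaf5 at 0.24 (log2, strain minus control). The remaining one, Ndufaf4, did not pass the filter. Whether a match goes with a member's difference was not tested.

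Under strain the genes of oxidative phosphorylation stood near their control level in these cultures. Of 80 tested members, 0 passed an adjusted p of 0.05 in either direction, against 26 probe sets higher (0.273%) and 5 lower (0.0525%) among the 9519 tested on the whole array (limma on log2 signals with the litter pair as a term, Benjamini-Hochberg over all 9519). The lowest adjusted p of a member was 0.308, for Ndufa7. At an unadjusted p under 0.05, 5 members were lower under strain, beside 4.9% of all tested probe sets, and 4 were higher, beside 4.55% (9.44% in either direction); 5 of 80 is 6.25%. Without litter 1, 8 members were lower at that threshold, and without litter 2, 2 were lower and 0 higher. The share of all tested probe sets at that threshold was not computed for these refits. Calls at the adjusted threshold over the whole array also moved, to 52 without litter 1 and 9 without litter 2. Strained cultures were below their litter's control in all 3 pairs for 15 members (18.8%, against 16.5% of all tested probe sets) and above it in all 3 for 8 (10%, against 13.7%). For 47 of 80 (58.8%, against 53.9%) the mean difference was below 0. Strained and control signals did not overlap for 1 member, Ndufb8, which was lower (3.23% of all tested probe sets were lower without overlap and 2.86% higher). These shares lie near those of the array as a whole. Among the 1904 brightest probe sets, the range in which 63 of the 80 members lie, 14.9% were lower and 21.3% higher in all 3 pairs. Of these probe sets 46.9% had a mean difference below 0. The members' shares lay further from these values, and the gap was not tested.

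The median log2 difference, strain minus control, was -0.02 over the 80 members, -0.02 over all tested probe sets and 0.01 over the 1904 brightest. In the 3 litter pairs taken singly the members' median was -0.01, -0.02 and -0.07. The members' differences ran from -0.44 for Cox7a1 to 0.27 for Cox7c, and 63 of 80 lay within 0.2 of 0. The median 95% interval reached 0.24 to either side of a member's difference, against 0.34 over all tested probe sets, so most members were measured more tightly than the typical probe set. For 73 of 80 members the interval lay inside a 1.5-fold change in both directions, and for 32 it lay inside a 1.25-fold change. The 7 whose interval reached past 1.5-fold were Ndufb6, Ndufs1, Uqcrc2, Cox4i2, Cox7a1, Ndufaf3 and Ndufaf5. The summed signal of the genes made up 2.64%, 2.37% and 2.15% of each control array's total and 2.63%, 2.39% and 2.08% of each strained array's. That share was nearly equal within a litter and differed more between litters than with strain.

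**Figure D1:**
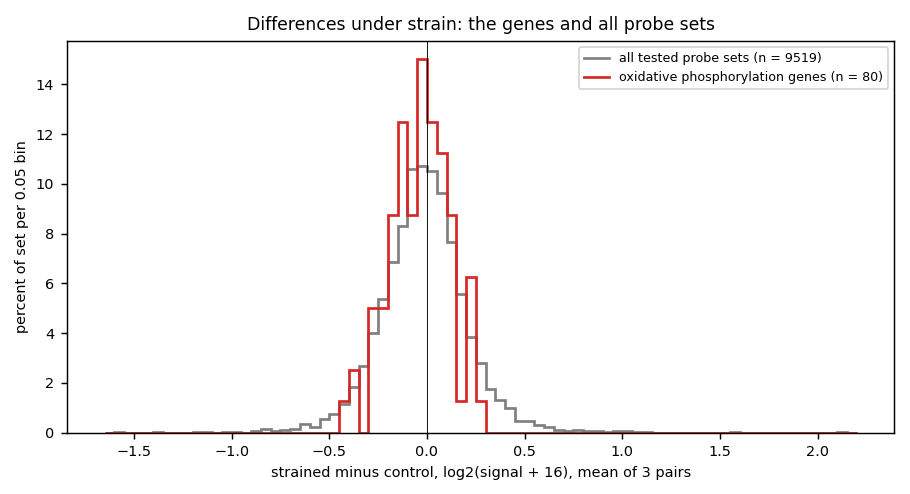
Histograms of the log2 difference, strain minus control (x axis, mean of 3 litter pairs), for the 80 tested members and for all 9519 tested probe sets. Both centre on a median of -0.02, and 63 of 80 members lie within 0.2 of 0.

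Complex I showed 3 of the 5 lower members and 1 of the 4 higher ones at the unadjusted threshold, with a median difference of -0.07 over its 34 genes. In 8 of the 34 the strained culture was lower in every litter. That is 23.5%, against 16.5% of all tested probe sets and 14.9% of the 1904 brightest. In 2 it was higher in every litter (5.88%, against 13.7% and 21.3%). Ndufb6, an accessory subunit of the membrane arm, read 2667, 2058 and 1527 signal units in the controls of litters 1 to 3 and 1924, 1292 and 1488 in the strained cultures. It was lower in each litter, by most in litter 2 and hardly in litter 3, and the groups overlapped; the mean difference was -0.39 ± 0.13 (log2, SE, n = 3 pairs; adjusted p = 0.352).

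Ndufa7, another accessory subunit, read 5018, 3979 and 2812 in controls and 4372, 3220.2 and 2145 under strain. The drop recurred in each litter at similar size (-0.30 ± 0.09, adjusted p = 0.308), while the litters themselves were further apart than the groups. Ndufa6, an accessory subunit of the LYR family that binds the acyl carrier protein, read 3215, 2842 and 2149 in controls and 2672, 2102 and 1990.4 under strain (-0.27 ± 0.10, adjusted p = 0.441). It too was lower in every litter with overlapping groups. Ndufb8, a membrane arm subunit whose protein is often used as a marker of assembled complex I, read 474, 471 and 451 in controls and 449, 419 and 351 under strain. It is the one member whose groups did not overlap, yet its highest strained value lay just under its lowest control value and its difference was small beside its error (-0.20 ± 0.14, adjusted p = 0.745).

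Ndufc2 went the other way: this small membrane arm subunit read 3201, 2307 and 2035 in controls and 3853, 2561 and 2428 under strain, higher in each litter (0.22 ± 0.10, adjusted p = 0.503). Sorted by textbook role after the values had been seen, the core subunits that carry the flavin and the iron-sulphur clusters or bind ubiquinone (Ndufs1, Ndufs3, Ndufs7, Ndufs8, Ndufv1 and Ndufv2) ran from -0.26 to 0.10, with 5 of 6 below 0. Ndufv1, which binds NADH and the flavin, read 1865, 2277 and 1942 in controls and 1711, 2423 and 1555 under strain, with no common direction over the litters (-0.12 ± 0.11, adjusted p = 0.83). Ndufv3 was measured by a pair of probe sets that differed in sign, 0.11 ± 0.17 for the brighter and -0.24 ± 0.20 for the other. The 4 tested assembly factors gave 0.17 ± 0.19 (Ndufaf3), 0.24 ± 0.22 (Ndufaf5), -0.11 ± 0.19 (Ndufaf7) and -0.00 ± 0.16 (Ndufaf8), none of them in the same direction in all 3 litters.

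All 4 genes of complex II had mean differences below 0, and 0 of 4 reached an unadjusted p of 0.05; their median was -0.14. Sdhd, a membrane anchor, read 1230.0, 1662 and 1626 in controls and 999.7, 1381 and 1487 under strain, lower in each litter (-0.23 ± 0.11, adjusted p = 0.579). A dimmer probe set of the same gene gave 0.09 ± 0.15, the opposite sign. Sdha, the flavoprotein that oxidises succinate, read 627, 1109 and 1719 in controls and 629.8, 889 and 1512 under strain (-0.16 ± 0.12, adjusted p = 0.752). Its spread over litters was several times its difference between groups. The iron-sulphur subunit Sdhb (-0.07 ± 0.12) and the anchor Sdhc (-0.11 ± 0.11) differed in direction between litters.

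Complex III had a median of -0.01 over 8 genes, 1 of them higher at the unadjusted threshold and 0 lower. Uqcrq, a small subunit next to cytochrome b, read 4941, 3826 and 3614 in controls and 5393, 4929 and 3946 under strain, higher in every litter (0.21 ± 0.09, adjusted p = 0.509). Uqcrfs1, the Rieske iron-sulphur protein, read 3771, 3638 and 3406 in controls and 3426, 3416 and 2821 under strain, lower in every litter (-0.17 ± 0.09, adjusted p = 0.643). Cyc1, the haem protein that hands electrons to cytochrome c, read 4753, 5125 and 4355 in controls and 6923, 5377 and 4358 under strain. Its difference of 0.20 ± 0.11 (adjusted p = 0.632) came from litter 1 and fell to 0.03 without it. Uqcrc2, a core protein, read 486, 478 and 958 in controls and 511, 425 and 607 under strain (-0.25 ± 0.16, adjusted p = 0.71). Its control of litter 3 was high, and without that litter the difference was -0.05.

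Complex IV, with 14 tested genes, had a median of 0.01 and held the member at each end of the range. Cox7c, a small structural subunit, read 7898, 4880.5 and 3675 in controls and 8409, 6026 and 4917 under strain (0.27 ± 0.09, adjusted p = 0.342). Cox6a1, the broadly expressed form of a regulatory subunit, read 10002, 6623 and 6386 in controls and 11066, 8450.0 and 7099 under strain (0.22 ± 0.08, adjusted p = 0.387). Both were higher in every litter, and in both the unstrained culture of litter 1 exceeded at least 1 strained culture of another litter. Cox7a2l, a relative of Cox7a2 that joins complexes III and IV in supercomplexes, read 2866, 4339.8 and 3430.2 in controls and 2444, 3539.6 and 3182 under strain, lower in every litter (-0.21 ± 0.09, adjusted p = 0.514).

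Cox4i1, the common form of the largest nuclear subunit, was among the members nearest 0, at 11193, 9833 and 8781 in controls and 11053, 10659 and 8304 under strain (0.01 ± 0.07). Cox8a read 15768, 11420.1 and 9488 in controls and 14028, 12135 and 9059.6 under strain (-0.05 ± 0.07). Ndufa4, first assigned to complex I and now counted with complex IV, read 6236, 5176 and 5033 in controls and 6771, 5735 and 5341 under strain. It was higher in each litter by a small and even step, and the groups overlapped (0.12 ± 0.08, adjusted p = 0.717).

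Complex IV has alternative subunit forms tied to tissue or oxygen, and these were dim here. Cox4i2, the form known from lung and smooth muscle, read 149.8, 166 and 123 in controls and 66.8, 156 and 116 under strain (-0.38 ± 0.26, adjusted p = 0.716); without litter 1 the difference was -0.07. Cox7a1, a heart and skeletal muscle form, read 276, 339.8 and 189 in controls and 288, 130.5 and 174 under strain (-0.44 ± 0.25, adjusted p = 0.649). Litter 2, with the highest control and the lowest strained reading, set that value. The difference was -0.03 without that litter. Cox6a2 and Cox8b, also muscle forms, stayed under the filter, at 118, 24.5 and 34.1 in controls and 61.3, 17.5 and 25.1 under strain for Cox6a2 and between 6.20 and 15.7 over all arrays for Cox8b. Ndufa4l2, a hypoxia-inducible relative of Ndufa4, read 54.8, 65.3 and 91.9 in controls and 106, 63.1 and 135 under strain, also under the filter.

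Markers of other cells were summed on the same arrays. The summed signal of 8 striated muscle genes (3 passed the filter) was 3971, 7697 and 3931 in controls and 1752, 4468 and 3563 under strain, lower in each litter. Acta1, skeletal muscle actin, made up most of that sum (-0.86 ± 0.18, adjusted p = 0.119); of the other tested genes Tnnt2 stood at -0.14 ± 0.21 and Ckm, higher in every litter, at 0.22 ± 0.18. In signal units the sum fell most in litter 2, where Cox7a1 was lower under strain. As a ratio it fell most in litter 1, where Cox7a1 was slightly higher. The sum of 8 smooth muscle and myofibroblast genes (7 passed) ranged from 20854 to 25107 in controls and from 15508 to 23088 under strain, and 9 leukocyte genes (7 passed) summed to between 2725 and 3512 in controls and between 1951 and 3577 under strain, lower in litters 1 and 2 and slightly higher in litter 3. All 7 tested genes of the smooth muscle list and all 7 of the leukocyte list had mean differences below 0, with 0 called. Of all tested probe sets 53.9% were below 0. The sum of 9 fibroblast and mesenchyme genes (4 passed) ranged from 20682 to 23137 in controls and from 21095 to 22022 under strain. It was lower in litters 1 and 2 and higher in litter 3. Its 4 tested genes ran from -0.61 to 0.18, with 3 below 0, 1 above and 0 called. The 6 endothelial genes all stayed under the filter, with sums of 233 to 427. The type II list summed to 10406 to 11214 in controls and 10765 to 11296 under strain. Its 7 tested genes ran from -0.77 (Slc34a2, a phosphate transporter) to 0.57 (Sftpc), with a median of -0.16 and 0 called. In every litter 3 of them were lower (42.9%) and 2 higher (28.6%), against 16.5% and 13.7% of all tested probe sets. The part of other cells in the values of the respiratory genes was not tested; in such bulk RNA, fewer cells of a type and less RNA per cell cannot be told apart.

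Complex V had a median of -0.02 over 16 genes, with 1 lower at the unadjusted threshold and 0 higher. Atp5f1a, the alpha subunit of the catalytic head, read 3098, 4776 and 5536 in controls and 2742, 4666 and 3524 under strain. It was lower in every litter but by most in litter 3, the litter with the highest control (-0.29 ± 0.12, adjusted p = 0.475; -0.10 without that litter). Atp5f1c, the gamma subunit that turns inside the head, read 2019, 2706 and 3299.6 in controls and 1792, 2407 and 2787 under strain, an even step down in each litter (-0.19 ± 0.10, adjusted p = 0.596). Atp5f1b, the catalytic beta subunit, read 9949.7, 12166 and 11762 in controls and 9455, 12220.3 and 11736 under strain (-0.02 ± 0.07). Its paired values were nearly equal in every litter, and its 95% interval lay inside a 1.25-fold change.

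In the membrane part of complex V, Atp5mc3, one of the genes for the proton-carrying ring subunit, read 10468, 10387 and 10696 in controls and 13483, 10116 and 8599 under strain (0.00 ± 0.11). Its even controls and scattered strained cultures averaged near 0, up in litter 1 and down in litter 3. Atp5mg, a small membrane subunit of the dimer interface, read 6383, 4169 and 4372 in controls and 6773, 5218 and 4349.7 under strain (0.13 ± 0.09, adjusted p = 0.724). Atp5pf, a stalk subunit, read 2433, 2767 and 2624 in controls and 2473, 2108 and 2292 under strain (-0.19 ± 0.11, adjusted p = 0.665). Neither had 1 direction in all 3 litters.

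**Figure D2:**
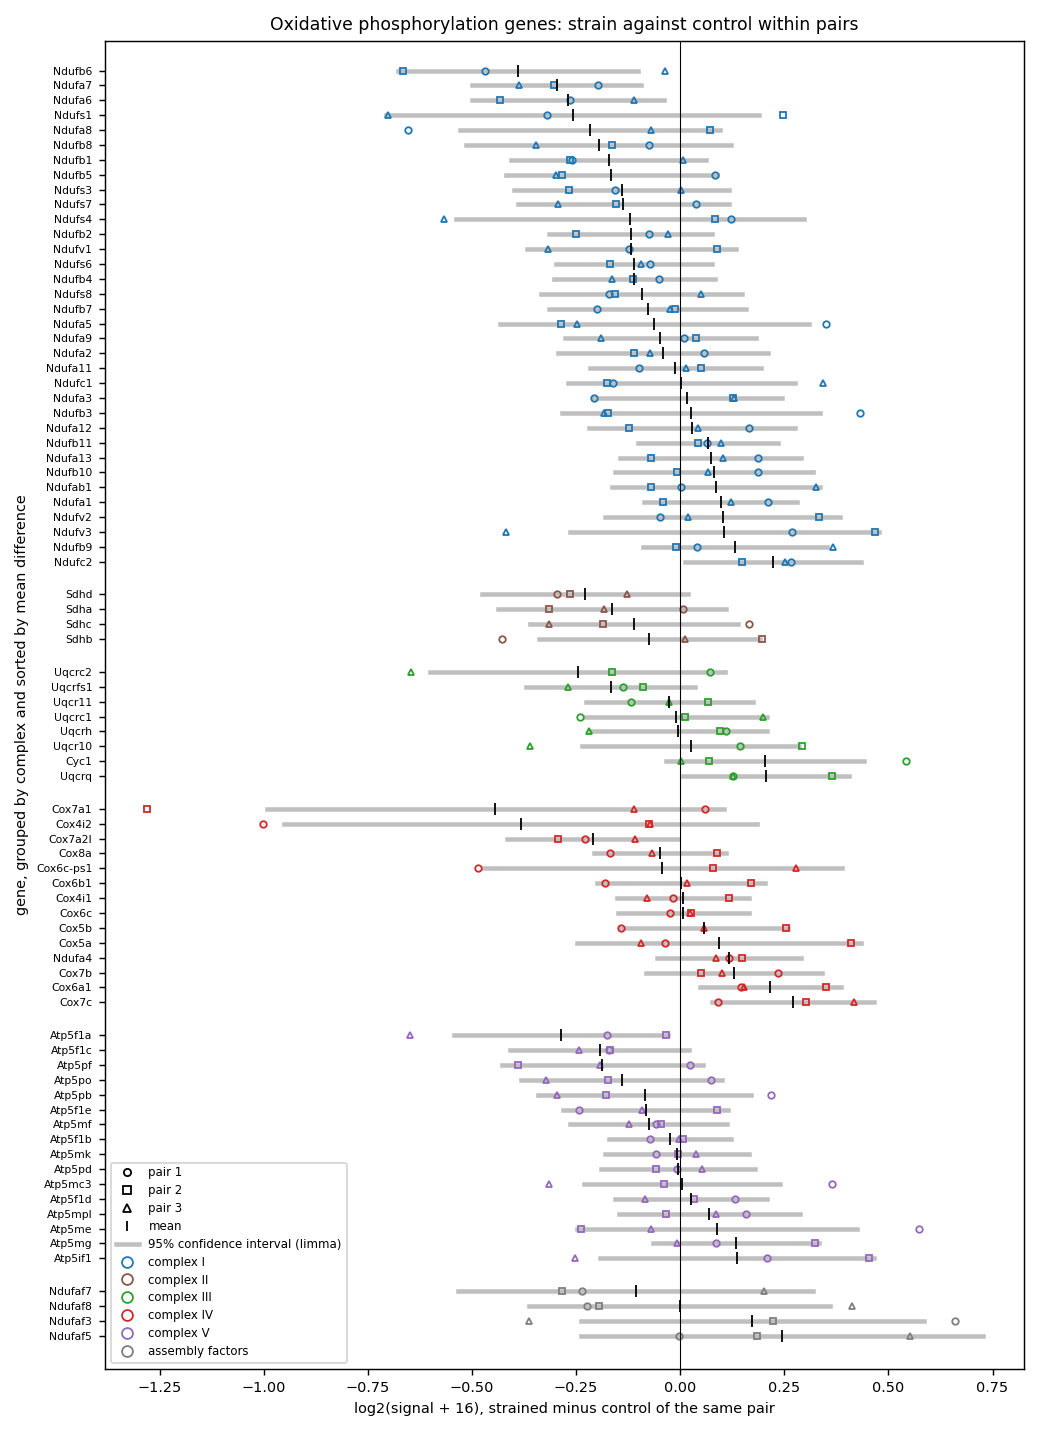
Log2 difference, strain minus control, of each tested member in each litter pair (points) with the mean and its 95% interval, ordered within complexes. Means run from -0.44 (Cox7a1) to 0.27 (Cox7c), and 0 of 80 passed the adjusted threshold.

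**Figure D3:**
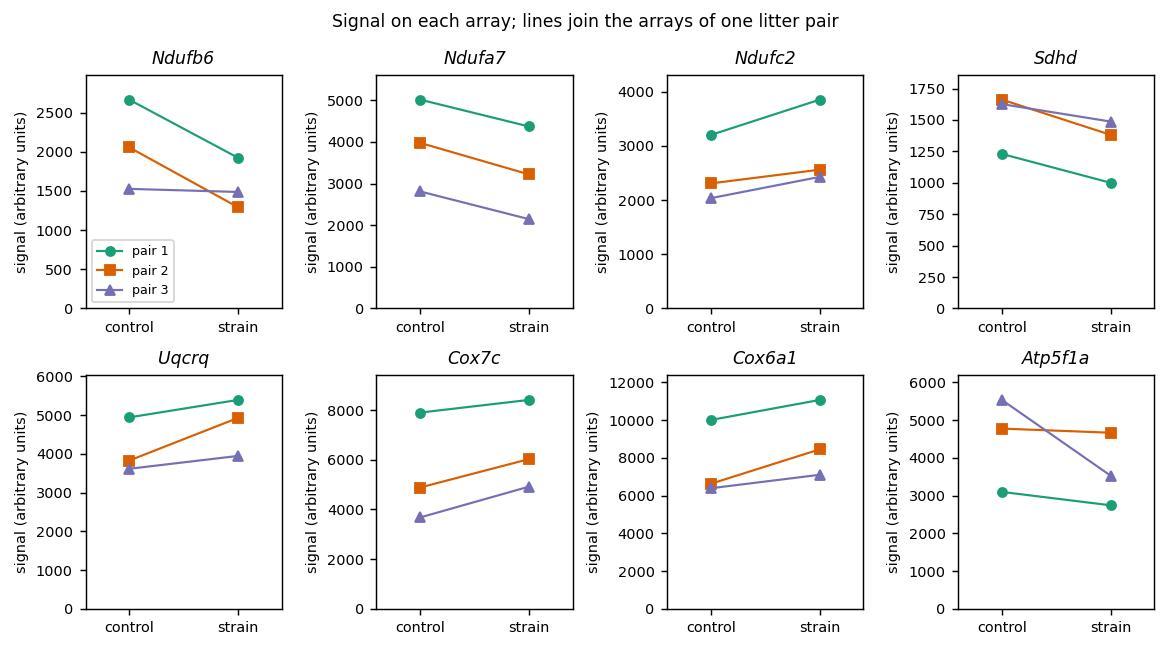
Signal (linear axis from 0) of 8 members in each control and strained culture, with lines joining cultures of 1 litter. Cox7c and Ndufa7 step in opposite directions with strain in every litter, while for both the litters lie further apart than the groups.

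Genes that serve the same organelle outside the rule were taken from 5 lists. Over these lists, 137 of 148 genes on the array were tested and 0 passed the adjusted threshold. The median was -0.04. At an unadjusted p under 0.05, 3 were higher, beside 4.55% of all tested probe sets, and 3 lower (2.19%), beside 4.9%. Of 26 tested assembly factors of the complexes, 1 was lower at that threshold: Atpaf2, which helps build the head of ATP synthase, read 631, 478 and 637 in controls and 386, 430 and 421 under strain. Its groups did not overlap (-0.47 ± 0.15, adjusted p = 0.342). In the same list, Nubpl was also lower without overlap, and Sdhaf3 (0.42 ± 0.23), Cox20 (0.35 ± 0.19), Bcs1l (0.19 ± 0.17) and Cox10 (0.18 ± 0.15) were higher without overlap, that is 2 lower and 4 higher of 26, beside 3.23% and 2.86% of all tested probe sets. In all 3 litters, 6 genes of the list were lower (23.1%, against 16.5% of all tested probe sets) and 6 higher (23.1%, against 13.7%). By the smallest p, Atpaf2 was followed by 2 more lower genes. Cox15, needed to make the haem of complex IV, gave -0.39 ± 0.18, and Oxa1l, an insertase of the inner membrane, -0.21 ± 0.10. Of 15 enzymes of the tricarboxylic acid cycle 0 reached that threshold, with a median of -0.08. The lowest p values were those of the isocitrate dehydrogenase Idh2 (-0.23 ± 0.11), the succinyl-CoA synthetase subunit Sucla2 (-0.27 ± 0.17) and Ogdh of the oxoglutarate dehydrogenase (-0.17 ± 0.12).

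Of 16 tested carriers and related genes 0 reached the threshold, with a median of -0.06; the dicarboxylate carrier Slc25a10 gave -0.25 ± 0.14, the electron transfer flavoprotein subunit Etfb -0.25 ± 0.15 and the uncoupling protein relative Ucp3 -0.39 ± 0.23. The adenine nucleotide carriers Slc25a4 and Slc25a5, which exchange ADP for ATP, both stood at -0.07 ± 0.09. Of 10 tested regulators of mitochondrial biogenesis 0 reached it, with a median of -0.02, and the lowest p values were those of Ssbp1 (-0.31 ± 0.20) and Polg2 (-0.23 ± 0.17), which serve the copying of mitochondrial DNA. Tfam, which packages and transcribes that DNA, gave -0.04 ± 0.17, and Esrra, a nuclear receptor that drives respiratory genes, -0.12 ± 0.18. Ppargc1a, a coactivator known as a main regulator of biogenesis, read at most 16.1 signal units and was not tested. Of 70 mitochondrial ribosomal proteins 3 were higher at the unadjusted threshold (Mrps2, Mrpl44 and Mrpl38, 0.33 to 0.39), beside 4.55% of all tested probe sets. Lower were 2 (Mrpl16, -0.34, and Mrpl41, -0.31), that is 2.86%, beside 4.9%. The median was -0.03.

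Many members differed between the litters. This comparison was chosen after the values had been seen. It uses the litter term of the same fit. Each litter gave 1 control and 1 strained culture, and the error is what remains after the litter and group terms. The SEs and p-values of this comparison therefore do not measure the spread over litters. Of 80 members, 33 (41.2%) differed among the 3 pairs at an adjusted p of 0.05, against 16.3% of all tested probe sets and 34.5% of the 1904 brightest of them, the range in which 63 of the 80 members lie. For 28 members litter 1 exceeded the mean of litters 2 and 3 at an adjusted p of 0.05. That is 35%, against 6.46% of all tested probe sets and 16.2% of the 1904 brightest. For 7 members litter 1 was below that mean at the same threshold (8.75%, against 7.11% and 13.4%). Litter 1 was highest in both groups for 36 members (45%, against 19.2% of all tested probe sets and 29.1% of the 1904 brightest), and litter 3 was lowest in both for 41 (51.2%, against 16.5% and 36.2%). The order of the litters was the same in control and strained cultures for 42 members (52.5%, against 36% and 47%), a share near that of the brightest probe sets. The members' median range across the 3 control cultures was 0.47 on the log2 scale, against 0.45 over all tested probe sets, whereas their median absolute difference with strain was 0.11, against 0.13.

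Counted by complex, after the values had been seen and with no test between complexes, the calls were as follows. Higher in litter 1 were 14 of 34 complex I genes, 3 of 8 of complex III, 6 of 14 of complex IV, 4 of 16 of complex V and 1 of 4 assembly factors, but 0 of 4 of complex II. Lower were 3 of 4 genes of complex II, 3 of 16 of complex V, 1 of 14 of complex IV and 0 of 34 of complex I. Of all tested probe sets 6.46% were called higher in litter 1 and 7.11% lower. Of the 1904 brightest 16.2% were called higher and 13.4% lower. Sdha averaged 628 signal units over both cultures of litter 1, 999 in litter 2 and 1616 in litter 3 (-0.99 ± 0.13 for litter 1 against the others, adjusted p = 0.002). Sdhb averaged 2587, 3806 and 3306 (-0.47 ± 0.13) and Sdhd 1115, 1522 and 1557 (-0.46 ± 0.12). The second probe set of Sdhd did not share this order: it read 1244, 968 and 1073 in controls and 1061, 964 and 1519 under strain, with litter 1 above litter 2 in both groups. The 5 genes of the catalytic head of complex V, a group formed after the values had been seen, differed in direction. Atp5f1a (2920, 4721 and 4530; -0.65 ± 0.12), Atp5f1c (1905, 2557 and 3043; -0.54 ± 0.10) and Atp5f1b (9702, 12193 and 11749; -0.30 ± 0.07) were lower in litter 1, while Atp5f1d, the delta subunit, was higher (6838, 6242 and 4467; 0.37 ± 0.09) and Atp5f1e, the epsilon subunit, was not called (0.18 ± 0.10, adjusted p = 0.252). The remaining member that was lower was Cox7a2l (-0.44 ± 0.10).

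Ndufb1, a small membrane arm subunit, had the largest excess in litter 1, averaging 3768 units there against 1758 and 1626 (1.15 ± 0.11, adjusted p = 7.4e-04). Uqcr10, a small subunit of complex III, averaged 6621, 3968 and 3360 (0.86 ± 0.13), and Cox7c 8153, 5453 and 4296 (0.76 ± 0.09). Ndufb3 (0.79 ± 0.15), Cox7b (0.73 ± 0.10), Ndufa7 (0.66 ± 0.10), Ndufa1 (0.62 ± 0.09) and Atp5mk (0.62 ± 0.08) were among the others. The 6 complex I core subunits, sorted after the values had been seen, had values from -0.37 to 0.24 with 0 called. Cox4i1 was not called for litter 1 (0.25 ± 0.08, adjusted p = 0.053) but was among the 33 members that differed over the 3 litters (adjusted p = 0.033). Cox8a was higher in litter 1 (14898 against 11777 and 9274; 0.51 ± 0.08).

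Litter 1 was also run on another day than litters 2 and 3, and litter 3 on another chip lot than litters 1 and 2, so litter, run day and chip lot cannot be told apart in these differences. The ratio of 3′ to 5′ signal of Gapdh, a measure of RNA and labelling quality, moved with the litters as well: it was 1.41, 1.56 and 1.80 in the controls of litters 1, 2 and 3 and 1.47, 1.73 and 1.79 in the strained cultures. Its part in the members' differences was not tested. Without litter 2, 28 members were called higher and 3 lower in litter 1, beside 6.25% and 7.12% of all tested probe sets. Without litter 3 the counts were 13 and 3, beside 4.78% and 4.34%. With litters 2 and 3 alone, 13 members differed, beside 10.1%. The fit of all litters called 3 members higher and 1 lower in litter 2 than in litter 3, beside 82 and 121 of the 9519 probe sets. Without the trend of variance on signal level 0 members differed, beside 0% of all tested probe sets. With all probe sets kept in the fit 12 of 85 members did, beside 1.82%.

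**Figure D4:**
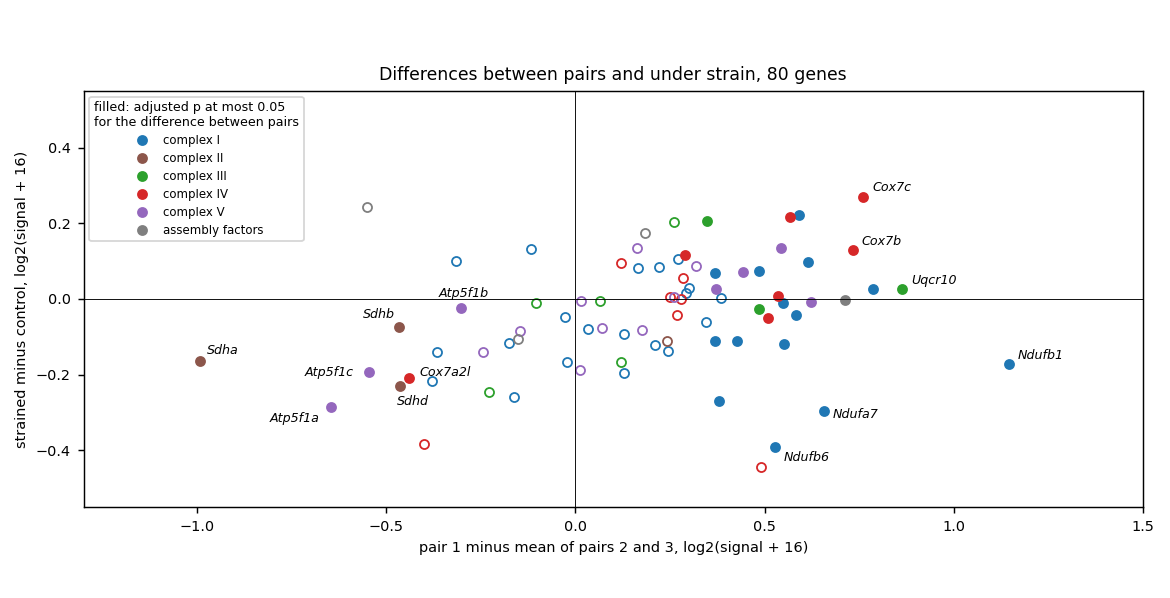
Each tested member's difference between litter 1 and the mean of litters 2 and 3 (x axis, log2) against its difference between strain and control (y axis, log2), coloured by complex, with filled points for members called in the litter comparison. Members spread from -0.99 (Sdha) to 1.15 (Ndufb1) along the litter axis and from -0.44 to 0.27 along the strain axis.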

How the data were processed

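RNA of 6 cultures (3 control, 3 strained) was hybridised to 6 Affymetrix rat E230A arrays, 1 biotin-labelled sample each, per the labels' protocols. The deposited table gives an intensity per probe set, the authors' signal from MAS5 5.0 per the submitters' processing notes. The labels name a column clean-up of the RNA that the deposited run records do not list. The 2% trimmed mean of every deposited column was near 500, and columns were set to 500 exactly. Of 15866 probe sets (57 controls left out), the dimmest 40% were dropped. log2(signal + 16), computed here from the deposited intensities, was fitted with limma 3.58.1 in R 4.3.3, with litter pair and group as terms and a variance trend; folds are on that scale and understate the change of dim genes. Adjusted p-values are Benjamini-Hochberg over 9519 probe sets, with a threshold of 0.05. For strain against control n = 3 pairs, with 2 residual and 9.00 prior degrees of freedom, and this number of arrays limits the precision. The litter comparison uses the same error and has no replicate litters. Symbols came from the platform annotation, of which 12783 probe sets have 1 symbol, 312 several and 2771 none, with gene IDs matched to the RefSeq table. A probe set's signal depends on its probes, so genes were not compared in level.

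Series text states that pairs came from different litters, and same-numbered cultures were taken as pairs. Deviations of same-numbered cultures from their group means correlated at 0.51, 0.47 and 0.44, others at -0.35 to -0.12. These values cannot show a shared litter. Same-numbered arrays also share run day and chip lot, and deviations within a group cancel out. Members were chosen by symbol, and members and lists with earlier results of these data known. Named were members past the adjusted p, the up to 4 of smallest p per complex, both extremes, cytochrome c and complex II genes, isoform pairs of complex IV, subunit c genes, genes whose probe sets differ in sign, and the up to 3 of smallest p per list. Other genes named (among them Ndufb8, Ndufv1, Atp5f1b, further genes of the lists and those of the litter comparison) were chosen after their values were seen. The fit was tested on simulated data. Alternatives were another scaling (quantile, median, cyclic loess), pseudocount, filter, trend, no pair term, run day as a term and each pair left out.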

Additional observations from a re-analysis of the deposited data

How the results depend on the processing

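The count of 0 members past the adjusted threshold held in all 13 settings in which it was computed; the lowest adjusted p of a member in any of them was 0.118. Of all tested probe sets 31 were called, against 0 with no replicate block (the pairing ignored), 5 with dim probe sets kept, 1 with no variance trend, 1 with run day in place of the litter, and 9 to 52 with a pair left out. Members at an unadjusted p under 0.05 and lower numbered 5, against 0 with no replicate block, 3 under median centring, 1 with no variance trend, 1 with run day and 2 to 8 with a pair left out. Those higher numbered 4, against 0 with no replicate block, 1 under quantile normalization, 2 under cyclic loess, 0 with no variance trend, 0 with run day and 0 to 6 with a pair left out. For both counts, the share of all tested probe sets in these other settings was not computed. Members lower in every pair numbered 15, against 23 to 29 with a pair left out, and those higher 8, against 15 to 18, since fewer pairs must match; median centring gave 14 higher.

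Under median centring the median difference was 0.0051 over members, 0.012 over all tested probe sets, -0.040 for complex I and 0.038 for the 1904 brightest probe sets; the last was -0.0065 under quantile normalization and -0.0075 under cyclic loess. With a pair left out the medians ranged from -0.084 to -0.035 for complex I, -0.222 to -0.135 for complex II, -0.046 to 0.084 for complex IV and 0.0027 to 0.018 for the brightest. Members that differed between litters at the adjusted threshold numbered 12 with dim probe sets kept, beside 1.82% of all probe sets. They numbered 0 with no variance trend and 13 to 31 with a pair left out. Those called higher in litter 1 numbered 0 with no variance trend and 13 to 28 with a pair left out. Those called lower numbered 4 with dim probe sets kept, beside 1.79% of all probe sets. They numbered 0 with no variance trend and 3 with pair 2 or 3 left out. The cause of these shifts was not tested.

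Named members near 0 changed sign. Ndufaf8 was at 0.00072 with a pseudocount of 1, 0.027 under quantile normalization, 0.028 under median centring and 0.026 under cyclic loess. Cox4i1 was at -0.014 under quantile normalization and -0.015 under cyclic loess, and Atp5mc3 at -0.0059 and -0.017. With a pair left out, differences ranged from -0.209 to 0.110 for Ndufaf8, -0.049 to 0.049 for Cox4i1, -0.176 to 0.163 for Atp5mc3, -0.209 to 0.103 for Sdhb, -0.070 to 0.441 for Ndufaf3, -0.118 to 0.010 for Cox8a and -0.075 to 0.368 for Ndufv3.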
